A study of Danio rerio with 6 samples.

Results

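A set of 8 liver genes that encode secreted carrier, binding and precursor proteins of the blood plasma were followed in adult male zebrafish (Danio rerio): shbg, ttr, rbp4, gc, ambp, spp2, fetub and agt. They were chosen by gene name, and all 8 of the 8 names were found, each with 1 gene ID, among 31953 gene IDs in the deposited tables. All 8 had reads in every group of libraries except spp2, which had none under estradiol.

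The 3 groups of male fish were kept for 3 weeks in flowing water. Controls received the vehicle ethanol alone, another received 1000 nM of 17β-estradiol (E2, the main natural estrogen) in ethanol, and the last received 100 nM of nonylphenol (NP, an industrial alkylphenol with estrogenic activity) in ethanol. Each group was 1 tank of 80 L with 40 fish, so tank and treatment cannot be told apart. Liver RNA was sequenced in 2 libraries a group, and since nothing in the labels says whether a library is 1 fish or a pool, the p-values compare groups with the spread of single libraries, and that spread may be technical.

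The liver secretes most plasma proteins, and carriers keep hormones and fat-soluble vitamins in solution and away from rapid loss. Sex hormone-binding globulin (shbg) binds sex steroids, estradiol among them, and transthyretin (ttr) binds thyroid hormones. Retinol-binding protein 4 (rbp4) takes vitamin A from liver stores to other tissues, in mammals in a complex with transthyretin, and the gc product carries vitamin D. The ambp precursor is cut into a lipocalin and a protease inhibitor, spp2 and fetub (fetuin-B) belong to the cystatin superfamily, and angiotensinogen (agt) is the substrate from which renin releases angiotensin.

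The authors deposited 2 tables, E2 against control and NP against control, with a mean normalised read count, a log2 fold change and a p-value per gene. Whole reads per library were recovered from those means for all 8 genes. Which of a group's 2 samples is which cannot be read from the means, so libraries are called deeper and shallower by size factor. Summed over 18536 recovered genes, the 6 libraries held from 30547 reads (the shallower E2 library) to 732595 (the deeper control library), and 1 read in the shallower E2 library stands for 5.35 normalised reads. Hepatocyte markers were abundant in both of the authors' deposited tables, for example fabp10a with means of 1016 and 5378. The 9 of 18 hepatocyte markers with recovered reads summed to 1550 and 5388 normalised reads in the deeper and shallower control libraries, 971 and 1026 in E2, and 7833 and 8815 in NP. Their sum was thus below both controls in E2, above both in NP, and low in the deeper control, as were several of the 8 genes. The other 9 markers, among them fabp10a, tfa and fgb, were not recovered and are not in the sum. Under NP their log2 fold changes in the authors' deposited table included 1.54 for fabp10a, 1.13 for tfa and -0.17 for fgb. Several summed markers did not follow the sum. In E2, serpina1l, tat, hpda, pah and fah were not below both controls in both libraries, whereas serpina1, ces2, f2 and f9a were. In NP, serpina1, tat, pah and fah were not above both controls in both libraries. For f2 the deeper control was the higher, at 847 against 760 normalised reads. For example, tat had 27.5 and 143 normalised reads in control and 272 and 134 in E2. Genes of exocrine pancreas summed to 8466 and 30017 normalised reads in the NP libraries, 159 and 1898 in E2, and 9.41 and 107 in control, over 14 of 14 listed genes with reads. Macrophage and antigen presentation genes summed to 1905 and 717 in control and to between 94.8 and 155 in the other 4 libraries, over 11 genes. Much of the control sums, and most of the gap between them, came from lygl1, with 1466 and 299 normalised reads. Not every gene followed the sum, since cd74a had 44.4 and 143 in control, 71.4 and 64.1 in E2, and 29.2 and 58.0 in NP. Of 8 intestine genes other than apoa4b.1 and rbp2a, which were set aside after their values were seen, all were present in the shallower control library, where they summed to 428. In the other 5 libraries these genes summed to at most 9.41, and 5 to 7 of the 8 were at 0. In bulk tissue, fewer cells of a type and less RNA per cell cannot be told apart, and the part of these markers in the results below was not tested.

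**Figure D1:**
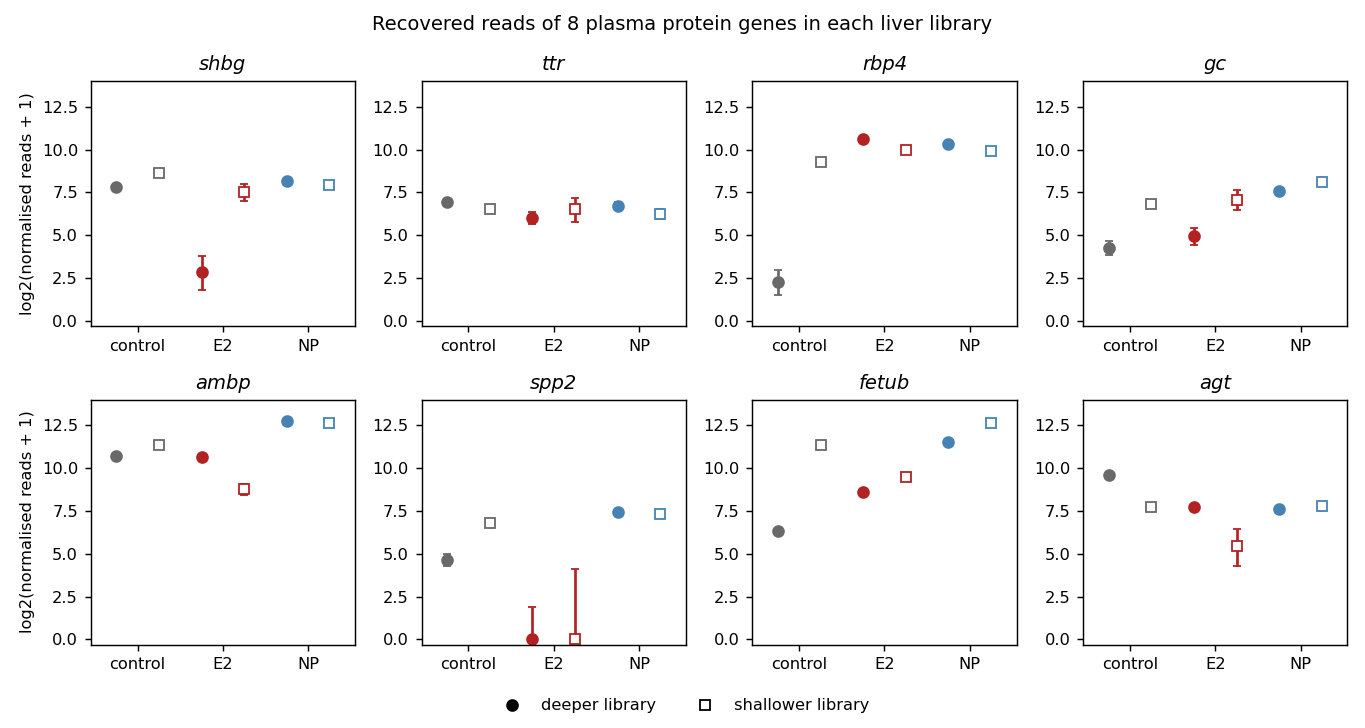
Recovered reads of the 8 genes in each of the 6 libraries, as log2 of normalised reads plus 1. Circles are the deeper and squares the shallower library of a group, and bars are exact 95% Poisson intervals, which cover counting error only (at 0 reads the bar ends at 3 reads). The deeper control library stands far below the other for rbp4 and fetub, both E2 libraries are at 0 for spp2, and the 2 NP libraries lie close together.

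The first question was what E2 changed in these genes. One gene passed the test: spp2 fell, with no read in either E2 library. The other 7 did not pass at an adjusted p under 0.05, and their deposited log2 fold changes ran from -1.74 for agt to 1.74 for rbp4 in the authors' deposited table. Thus 1 of the 8 was called, against 5.77% of 3241 genes with an adjusted p in that table, 3.67% of them lower and 2.1% higher. The median log2 fold change of the 8 genes in the authors' deposited table was -1.08, and that of all genes with an adjusted p was -0.22. Counted by library, 5 of the 8 genes had both E2 libraries below both controls, as did 31.3% of 3772 genes averaging 10 normalised reads or more. Only rbp4 had both above, as did 12.5% of those genes. On the recovered reads, limma-voom called none of the 8 and 0.00920% of 10872 genes. There 3 of the 8 (rbp4, shbg and spp2) had an unadjusted p under 0.05, against 13.6% of the 10872 genes.

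NP called none of the 8. Over the authors' deposited table, 2.94% of 6799 genes with an adjusted p passed, 1.26% of them higher and 1.68% lower. Before adjustment, ambp and gc were under 0.05 in the authors' deposited table, 2 of the 8, against 9.03% of those genes. On the recovered reads, limma-voom also called none (0% of all genes), with 4 of the 8 at an unadjusted p under 0.05 against 7.12% of 10872 genes. By library, 5 of the 8 genes (rbp4, gc, ambp, spp2 and fetub) had both NP libraries above both controls, compared with 27.8% of 3884 genes. None had both below, where 21.5% of genes did. The median log2 fold change in the authors' deposited table was 1.19 for the 8 genes and -0.03 for all genes with an adjusted p.

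**Figure D2:**
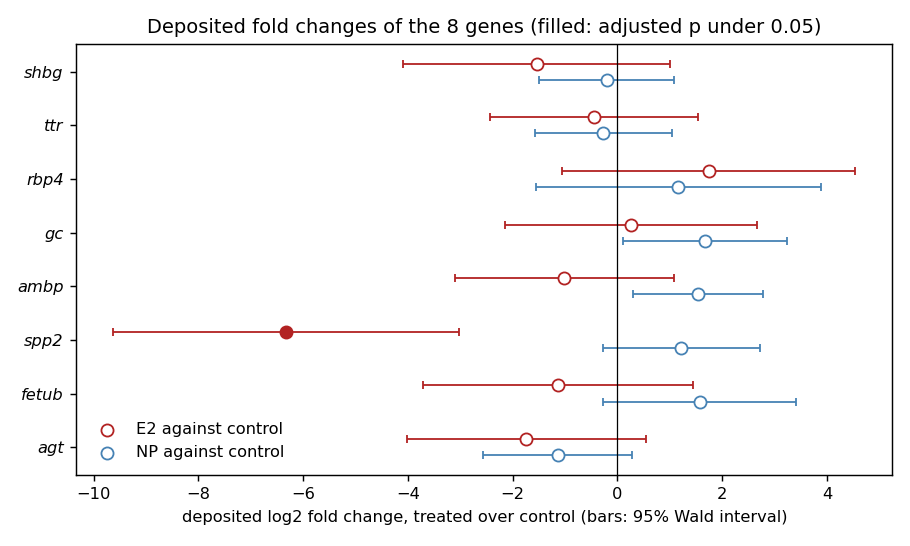
Log2 fold changes of the 8 genes from the authors' deposited tables, E2 in red and NP in blue, with 95% Wald intervals; 0 is no difference from control. The filled point, spp2 under E2 at -6.33, is the only one past an adjusted p of 0.05, and the NP intervals of ambp and gc lie above 0 before adjustment.

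Among the hormone carriers, shbg (ENSDARG00000019492) had 596 and 673 reads in the deeper and shallower control libraries, 7 and 34 in E2, and 433 and 358 in NP. Scaled by size factor these were 224 and 394 normalised reads in control, 6.33 and 182 in E2, and 287 and 244 in NP. Both E2 libraries were below both controls, but they differed from each other 28.7-fold, and the counting interval of the shallower one, 126 to 254, takes in the lower control. The NP libraries lay between the controls. In the authors' deposited table the log2 fold change under E2 was -1.54 ± 1.3 (SE; adjusted p = 0.583); for NP it was -0.20 ± 0.66 (adjusted p = 0.999). The unshrunken log2 ratio of E2 to control was -1.71 with all libraries, -0.76 without the deeper E2 library and -5.50 without the shallower one.

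Transthyretin (ttr, ENSDARG00000037191) varied least. Its normalised reads were 124 and 91.2 in control, from 329 and 156 reads. They were 64.2 and 90.9 in E2, from 71 and 17 reads, and 102 and 75.1 in NP, from 154 and 110 reads. The 6 values lie within a narrow band, and the E2 libraries are below the controls only by the margin between 90.9 and 91.2. The log2 fold changes in the authors' deposited tables were -0.45 ± 1.01 (SE; adjusted p = 0.875) for E2 and -0.27 ± 0.67 (adjusted p = 0.999) for NP. Their 95% intervals, -2.43 to 1.53 and -1.58 to 1.05, are wide beside these values.

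Of the vitamin carriers, rbp4 (ENSDARG00000101199) showed the widest gap between controls, with 10 reads in the deeper control library and 1051 in the shallower. Normalised reads were 3.76 and 615 in control, 1542 and 1010 in E2, and 1277 and 956 in NP. All 4 treated libraries stood above both controls, by a small factor over the shallower control and by a large one over the deeper. Only 1.03% of 975 genes with a control mean of at least 50 differed as much between the controls. In the authors' deposited tables the log2 fold changes were 1.74 ± 1.43 (SE; adjusted p = 0.570) for E2 and 1.16 ± 1.39 (adjusted p = 0.999) for NP. Without the shallower control library the log2 ratios were 8.23 for E2 and 8.03 for NP, and without the deeper they were as low as 1.05 and 0.86. The limma-voom fit over 6 libraries gave 4.83 (95% interval 0.79 to 8.86, adjusted p = 0.30) for E2 and 4.69 (0.83 to 8.55, adjusted p = 0.647) for NP.

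The vitamin D carrier gc (ENSDARG00000089310) had 48 and 192 reads in control, 33 and 25 in E2, and 283 and 398 in NP. These came to 18.1 and 112 normalised reads in control, 29.8 and 134 in E2, and 188 and 272 in NP. E2 overlapped the controls, whereas both NP libraries were above all 4 others. The log2 fold change under NP in the authors' deposited table was 1.67 ± 0.80 (SE; p = 0.0360, adjusted p = 0.462), and under E2 it was 0.26 ± 1.23 (adjusted p = 0.946). The NP log2 ratio of 1.81 became 1.03 without the deeper control library and 3.63 without the shallower. The E2 ratio changed sign with the library left out, from -1.12 on the log2 scale without the shallower E2 library to 2.15 without the shallower control.

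Among the protease inhibitor relatives, ambp (ENSDARG00000004296) had the steadiest controls after ttr, at 1693 and 2645 normalised reads from 4501 and 4522 reads. The NP libraries held 6933 and 6284 normalised reads, from 10462 and 9206 reads, and differed from each other 1.1-fold. The E2 libraries held 1578 and 438, from 1746 and 82 reads. NP was above and E2 below every control, but the counting interval of the deeper E2 library, 1505 to 1653, overlaps that of the deeper control, 1644 to 1744. In the authors' deposited table the NP log2 fold change was 1.53 ± 0.63 (SE; p = 0.0157, adjusted p = 0.284), the smallest p of the 8 genes in that comparison. The E2 value in the authors' deposited table was -1.02 ± 1.06 (adjusted p = 0.680), and the log2 ratio was -2.31 without the deeper E2 library and -0.46 without the shallower.

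The gene that passed, spp2 (ENSDARG00000095590), encodes secreted phosphoprotein 2, a cystatin-like protein. It had 64 and 187 reads in control, 0 and 0 in E2, and 259 and 235 in NP. In normalised reads that is 24.1 and 109 in control and 172 and 160 in NP. The E2 libraries were the only ones without a read, and NP stood above both controls. Against a floor of 3 reads over the E2 group, spp2 was at least 24.8-fold lower under E2 than in control and at least 71.6-fold lower than under NP. Against the deeper control library alone the bound was 10.4-fold, and against the shallower alone 47.2-fold. These bounds cover counting error only, not the spread between libraries, and rest mainly on the deeper E2 library. At 0 reads the upper limit was 2.71 normalised reads in the deeper E2 library and 16.0 in the shallower, near the 24.1 of the deeper control. The authors' deposited table gave -6.33 ± 1.68 (SE; adjusted p = 0.00816) on the log2 scale, a fitted value that depends on the prior for a group at 0. The call was lost in limma-voom on the recovered reads (log2 difference -5.82, 95% interval -8.97 to -2.67, adjusted p = 0.203), and it returned there without the filter on low counts (adjusted p = 0.0367). Without that filter 76 of 18536 genes were called for E2, against 1 of 10872 with it. For NP the authors' deposited table gave 1.22 ± 0.77 (adjusted p = 0.771), and the NP log2 ratio was 0.60 without the deeper control library and 2.76 without the shallower.

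Fetuin-B (fetub, ENSDARG00000053973), in mammals an inhibitor of the egg protease ovastacin, differed 33.7-fold between the controls. It had 207 and 4487 reads there, 437 and 134 in E2, and 4495 and 9198 in NP. Normalised reads were 77.9 and 2625 in control, 395 and 716 in E2, and 2979 and 6279 in NP. The E2 libraries lay between the controls, and both NP libraries lay above them. In the authors' deposited tables the log2 fold changes were -1.14 ± 1.31 (SE; adjusted p = 0.715) for E2 and 1.57 ± 0.94 (adjusted p = 0.737) for NP. Without the shallower control library the log2 ratios became 2.83 for E2, which turns the sign, and 5.88 for NP. A second gene annotated to human FETUB, with 647 and 234 control reads, 114 and 4 in E2 and 339 and 319 in NP, did not share this gap between the controls. How reads that fit both copies were counted is not given, so both values are uncertain.

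Angiotensinogen (agt, ENSDARG00000016412) was the one gene of the 8 with a much higher value in the deeper control library. It had 2016 and 364 reads in control, 233 and 8 in E2, and 294 and 325 in NP. Normalised reads were 758 and 213 in control, 211 and 42.8 in E2, and 195 and 222 in NP. The deeper control stood apart from the other 5 libraries, of which 4 were between 195 and 222. The counting interval of the deeper E2 library, 184 to 239, takes in the shallower control. The log2 fold changes in the authors' deposited tables were -1.74 ± 1.16 (SE; adjusted p = 0.451) for E2 and -1.14 ± 0.73 (adjusted p = 0.782) for NP. Without the deeper control library the log2 ratio was -0.03 for NP and -0.75 for E2, and for E2 it was -3.49 without the deeper E2 library.

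The spread between the 2 libraries of a group set how far these values can be read. In control, 3 of the 8 genes (rbp4, fetub and gc) differed at least 5-fold between libraries, against 14.3% of 975 genes with a control mean of at least 50. In E2 only shbg did, against 40.4% of 918 genes, and in NP none did, against 2.21% of 1039. In the controls 6 of the 8 genes were higher in the shallower library, as were 52.9% of genes at that level. The median fold between libraries over all such genes was 1.95 in control, 3.58 in E2 and 1.32 in NP. Serum amyloid A (saa), an acute phase gene chosen here after its values were seen, had 466 reads in the deeper control library, 3 in the shallower and none in the other 4. Other acute phase genes differed less between the controls. The haptoglobin genes had 2775 and 619, and 327 and 301, normalised reads in the deeper and shallower control libraries. C-reactive protein genes had 112 and 122 (CRP) and 1190 and 1042 (crp). The part of the saa difference in the results of the 8 genes was not tested.

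**Figure D3:**
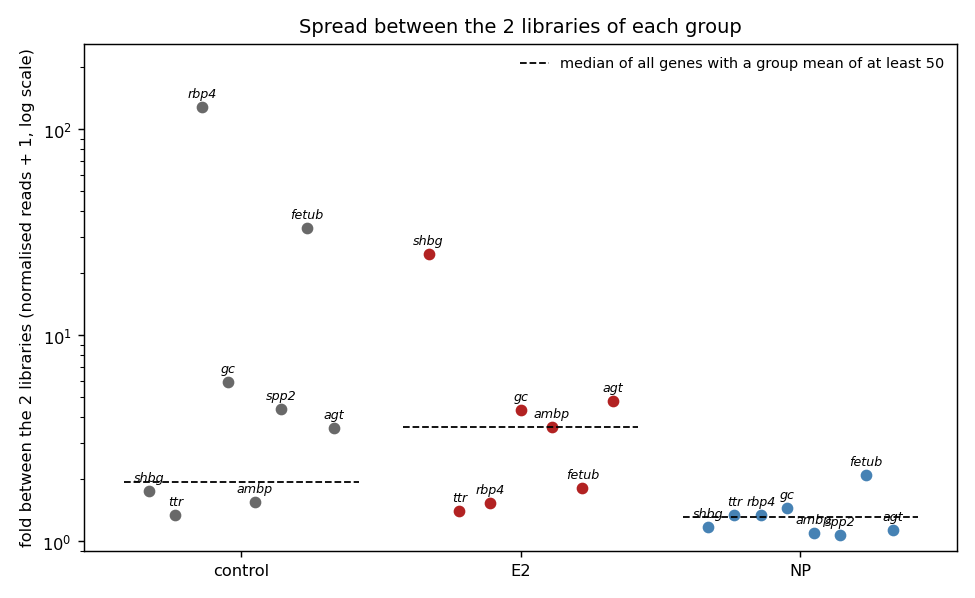
Fold between the 2 libraries of each group for the 8 genes, computed on normalised reads plus 1 and drawn on a log axis. Dashed lines are the medians of all genes with a group mean of at least 50, which are 1.95, 3.58 and 1.32. The controls differ most for rbp4 and fetub and the E2 libraries for shbg; spp2 in E2 is at 0 in both libraries and is not drawn.

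Set against each other on the recovered reads, E2 was below NP in both libraries for 5 of the 8 genes (shbg, gc, ambp, spp2 and fetub), as for 40.1% of 3662 genes, and above for none, against 15.2%. The concentrations of the 2 compounds differed, so this compares the exposures as given. No gene passed in limma-voom, where 0% of 10872 genes were called and 16.6% fell under 0.05 before adjustment. Before adjustment 3 of the 8 genes were under 0.05, namely spp2, ambp and shbg. The log2 difference of E2 minus NP was -7.58 for spp2 (95% interval -10.67 to -4.49, adjusted p = 0.10), which had no read in E2. It was -2.91 for ambp (-4.46 to -1.35, adjusted p = 0.124) and -2.92 for shbg (-5.74 to -0.09, adjusted p = 0.289). For ttr it was -0.31 (-1.86 to 1.24) and for rbp4 0.14 (-3.26 to 3.53), intervals that do not show equal levels. The call of spp2 was gained in limma-voom without the filter on low counts (adjusted p = 0.00471), where 196 of 18536 genes were called. It was not gained with the deposited size factors (adjusted p = 0.0967).

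Genes related to the 8 by pathway or family, and other plasma carriers, were then counted, with the 8 themselves left out. Under E2, 1 of 66 tested genes on these lists rose and 7 fell in the authors' deposited table. Under NP, 1 of 88 rose and 5 fell there. Over all genes of those tables the shares were 2.1% higher and 3.67% lower for E2, and 1.26% and 1.68% for NP. The list of other plasma carriers held 27 of the 66 tested genes and 29 of the 88. It also held 6 of the 7 that fell under E2 and 3 of the 5 that fell under NP. Reads were recovered and fitted in limma-voom for 59 of the 66 and 81 of the 88, and none of these was called in either comparison, where 0.00920% of 10872 genes were called for E2 and 0% for NP.

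For thyroid hormone, 0 of 5 tested genes passed under E2 and 1 of 6 fell under NP in the authors' deposited tables, with median log2 fold changes of -2.96 and 0.68. The gene that fell was dio3b, a deiodinase that inactivates thyroid hormone, at -3.67 ± 0.97 (SE; adjusted p = 0.00883) in the authors' deposited table. Its reads were 381 and 15 in control and 5 and 7 in NP, so the deeper control library carries most of the difference. Thyroxine-binding globulin (serpina7) had 1314 and 392 normalised reads in control, 104 and 80.2 in E2, and 1137 and 1300 in NP. Both E2 libraries were lower than both controls, and the adjusted p in the authors' deposited table was 0.0720.

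None of 10 retinol genes passed under E2 and none of 19 under NP, with medians of -0.90 and 0.21 in the authors' deposited tables. The smallest p under E2 were those of raraa and rxraa, nuclear receptors for retinoids. For rxraa the normalised reads were 5.64 and 13.5 in control, 71.4 and 80.2 in E2, and 13.3 and 14.3 in NP (adjusted p = 0.106 for E2 in the authors' deposited table). The E2 libraries stood above the other 4. Of the vitamin D genes, 1 was tested under E2 and 4 under NP, and none passed. The gene with the smallest p under E2, cyp24a1, which inactivates vitamin D hormone, had 131 and 29 reads in control, 13 and 0 in E2, and 33 and 18 in NP.

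Of the sex steroid genes, 1 of 9 rose under E2 and 0 of 10 passed under NP. The estrogen receptor esr1 rose under E2 by 6.45 ± 1.3 on the log2 scale (SE, adjusted p = 1.13e-04) in the authors' deposited table. Its reads were 3 and 1 in control and 275 and 7 in E2. In NP it had 13 and 0 reads and no adjusted p, so it is not among the 10. In the authors' deposited tables the list medians were 0.26 under E2 and 0.30 under NP. For NP the smallest p belonged to hsd17b12b, of the hydroxysteroid dehydrogenase family, with normalised reads of 57.9 and 97.7 in control and 111 and 214 in NP.

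In the renin-angiotensin system, 0 of 5 genes passed under E2 and 1 of 7 fell under NP, with medians of -4.02 and -1.84 in the authors' deposited tables. The one that fell, enpep, an aminopeptidase that trims angiotensin, had 2 and 119 reads in control, 1 and 0 in E2 and 1 and 1 in NP. The log2 fold change under NP in the authors' deposited table was -4.29 ± 1.18 (SE; adjusted p = 0.0138). Nearly all reads of enpep were thus in the shallower control library, the one that held intestine genes, and the part of those in the value was not tested.

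Other cystatin superfamily genes did not pass, 0 of 4 under E2 and 0 of 5 under NP, with medians of -0.83 and 0.47 in the authors' deposited tables. The fetuin-A gene ahsg1 had 471 and 1069 normalised reads in control, 508 and 406 in E2, and 1636 and 2081 in NP. Kininogen (kng1) had 496 and 713 in control, 109 and 208 in E2, and 1199 and 1057 in NP. For both genes the NP libraries were above both controls, and the adjusted p under NP was 0.649 and 0.912 in the authors' deposited table.

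Of the inter-alpha-inhibitor and lipocalin genes, 1 of 5 fell under E2 and 1 of 8 rose under NP, with medians of -2.06 and 0.52 in the authors' deposited tables. The lipocalin ptgdsa, a prostaglandin D synthase, had 113 and 95 reads in control, 0 and 0 in E2, and 156 and 60 in NP. That is at least 20.5-fold lower in E2 against a floor of 3 reads over the group (adjusted p = 0.0111 in the authors' deposited table). The lipocalin apoda.2 had no read in control or E2 and 19 and 48 in NP, at least 32.8-fold higher in NP than in control (adjusted p = 2.94e-04 in the authors' deposited table). Both bounds cover counting error only.

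Among other plasma carriers 6 of 27 fell under E2, where 3.67% of all genes did, and 3 of 29 fell under NP, where 1.68% did. None rose, and the medians were -2.56 and 0.19 in the authors' deposited tables. Haptoglobin (hp, ENSDARG00000051890), which binds free hemoglobin, fell in both, from 7376 and 1058 reads in control to 10 and 2 in E2 and 3 and 18 in NP. The adjusted p in the authors' deposited tables were 1.98e-06 and 2.35e-14. A second hp gene had 869 and 515 reads in control, 237 and 2 in E2 and 547 and 246 in NP. How reads that fit both hp copies were counted is not given, so the values of both are uncertain. Apolipoprotein E (apoeb), a lipid carrier, fell by 4.39 ± 1.02 on the log2 scale under E2 (SE; adjusted p = 0.00151) in the authors' deposited table. Normalised reads of apoeb were 607 and 777 in control and 26.2 and 26.7 in E2. The insulin-like growth factor carrier igfbp3 fell under NP (adjusted p = 0.00348 in the authors' deposited table), but its control reads were 631 and 10 against 3 and 9 in NP.

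**Figure D4:**
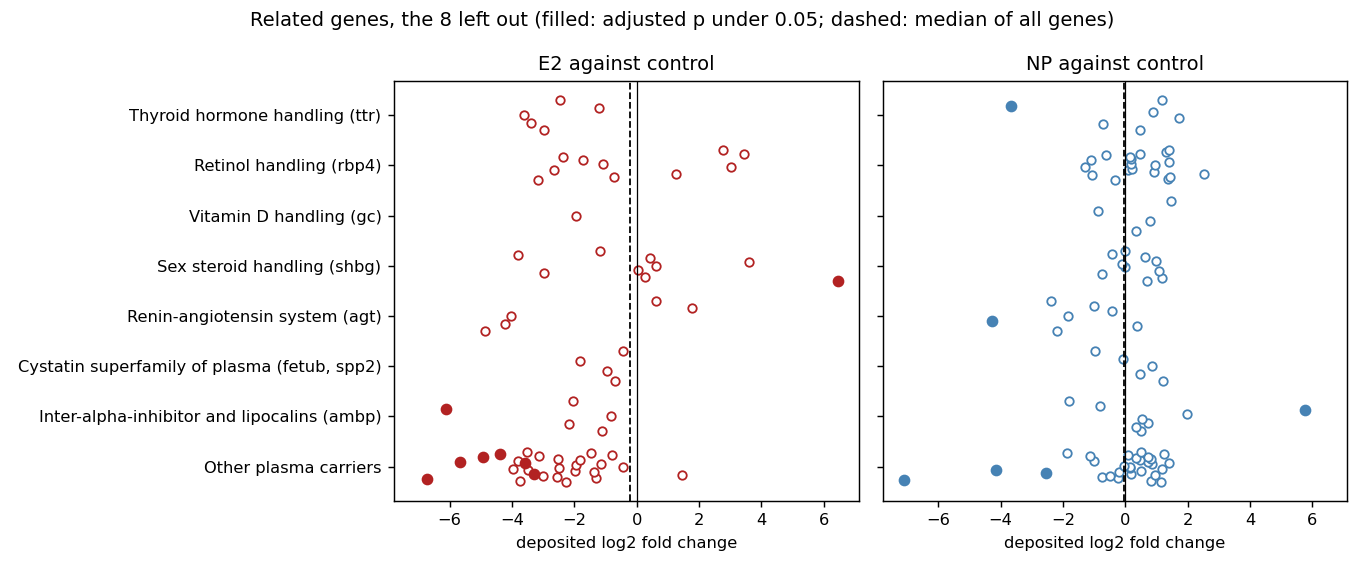
Deposited log2 fold changes of genes on 8 lists related to the carriers, E2 on the left and NP on the right, 1 point a gene; dashed lines mark the median of all genes with an adjusted p, -0.22 and -0.03. Filled points passed an adjusted p of 0.05. Most other plasma carriers lie below 0 under E2, and under NP the genes spread around 0 apart from a few that passed.

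For each of the 8 genes, the genes most like it over the 6 libraries were found by Pearson correlation of log2 normalised reads plus 1 among 5595 genes with at least 50 reads. These values describe 6 points that share library depth and groups, and carry no test. Closest to spp2 was hsd11b2, an enzyme that inactivates cortisol (r = 0.9998), with 85 and 266 reads in control, 0 and 0 in E2 and 348 and 302 in NP. Closest to gc was hal, histidine ammonia-lyase (r = 0.994), with 4 and 37, 3 and 8, and 85 and 151 reads in the same order. For fetub, slc27a2a, a fatty acid transporter, ranked second (r = 0.991), with 20 and 232 reads in control. Closest to agt was grinab (r = 0.996), with 712 and 89 reads in control. The highest r was 0.989 for shbg, 0.968 for ttr, 0.977 for rbp4 and 0.995 for ambp.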

How the data were processed

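Per the submitters' processing notes, reads were aligned with TopHat2 to the build GRCz10, counted with HTSeq and compared with DESeq2, versions and settings not given in the sources used here. The deposited files are the authors' own comparisons, per the file headers, with 32760 rows each (31953 gene IDs; repeated rows were identical). Each holds a signal (the mean of normalised counts over 4 libraries), a log2 fold change drawn toward 0, its standard error and Wald statistic (both entered as a score), and a p-value with its Benjamini-Hochberg adjusted value, all deposited by the authors. These values are the main result, at an adjusted p under 0.05. The members and lists were chosen with earlier results of these data known.

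Whole reads were recovered by solving each gene's deposited means for 6 whole counts. Of 18593 genes with reads, 18444 had 1 solution. A further 92 had several, of which the one whose refitted fold change and standard error matched the deposited values within 0.0001 was kept. Among the latter are rbp4, fetub and ambp, so their reads are not independent of the deposited fold changes. They were chosen from 17, 229 and 14676 solutions, and for ambp the next best differed from the deposited values by 0.0019. The refit matched for 3479 of 3480 genes with 1 solution, at least 100 reads and reads in each group. The recovered genes hold 60.2% and 57.7% of the summed means. Recovery was not tried for 55 genes with the highest means, a limit from which the 8 genes were exempt. The shares given over recovered genes thus leave out the most abundant genes. In simulated data limited to genes with low means, 3803 genes were solved right and 0 wrong. The choice among several solutions, which gave the reads of rbp4, fetub and ambp, was not simulated. limma 3.58.1 (voom, R 4.3.3) with TMM factors was fitted to all 6 libraries over genes with at least 10 reads. On simulated E2 counts for 18536 genes it recovered 192 of 200 changed genes with 5 false calls. Those changes were large and in well-read genes, and the spread was set and not taken from the libraries. The simulated result thus does not give its power on these data. Log2 ratios used a pseudocount of 0.5, and normalised reads are counts over size factors common to both tables. Named related genes were up to 4 of each list with the smallest adjusted p under 0.05, or the 2 smallest p, from which a selection is given. Genes were not compared in level, since no lengths were used. Gene coordinates and sequences were not used here. The labels name no batch.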

Additional observations from a re-analysis of the deposited data

How the results depend on the processing

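No paired analysis was possible because the labels give no replicate numbers shared between the groups, and the recovered libraries cannot be tied to samples. Of the 8 genes, the authors' E2 comparison called 1 (spp2), and that count was 0 with adjustment over genes with a mean of at least 50 (spp2 lies below it, so fewer genes were tested), 0 in limma-voom with TMM and 0 with the deposited size factors, and 0 to 1 when each library was left out of limma-voom, where the 1 was rbp4 (without the shallower control library) and spp2 passed in none of the 6. It stayed 1 with no filter, with a mean of at least 10, after centring, and in limma-voom without a filter, where 76 of 18536 genes were called. The NP count of 0 became 2 (rbp4 and fetub) in limma-voom without the shallower control library and was otherwise 0, a range of 0 to 2. The E2 against NP count of 0 became 1 (spp2) without the filter on low counts, and ranged from 0 to 1 over the libraries left out. Related genes called under E2 numbered 8, against 4 with adjustment over all genes, 11 with a mean of at least 50, 7 in limma-voom without its filter, 0 in limma-voom with either scaling, and 0 to 1 with a library left out. Under NP they numbered 6, against 0 in limma-voom with either scaling, 2 without its filter, 4 with a mean of at least 50, and 0 to 4 with a library left out. The cause of these changes was not tested beyond the smaller number of genes named above. Over all 3241 genes, the E2 calls numbered 187 and fell to 72 with adjustment over all 17208 genes and to 1 in limma-voom; over all genes, NP calls numbered 200 and limma-voom gave 0. The libraries of 6 genes (E2) and 5 genes (NP) stayed apart from the controls under TMM scaling, added after seeing the data. Of 96 alternative values of single genes, 82 moved by less than the spread between libraries and 14 by more. With libraries left out, 13 of 16 fold changes kept their sign; those of gc and fetub under E2 and of shbg under NP (0.24 without the shallower control library) did not. The shallower E2 library had the fewest reads, 30547 over the recovered genes, and the part of depth in these results was not tested.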
